A study of Gallus gallus with 2 samples.

Results

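Immediate early genes are switched on within minutes of a growth factor, a mechanical load or an oxidant, from factors the cell already holds and without new protein synthesis. MAP kinases phosphorylate ternary complex factors, which act with SRF on their promoters, and most of their transcripts are degraded soon after they are made. A second layer of stress-induced regulators follows, ATF3 and the Tribbles pseudokinases among them, and phosphatases such as DUSP1 close the loop by removing phosphate from the MAP kinases. In cardiac muscle this set of genes is known for its response to stretch, pressure load and injury. The roles given below come mainly from work in mammals.

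Transcript levels of 9 such regulators were read in hearts of chicken embryos (Gallus gallus). The genes were FOS, JUN, EGR1, ATF3, TRIB1, NFIL3, IER2, DUSP1 and BTG1, chosen by their name in the deposited tables. ATF3, TRIB1 and NFIL3 were picked for their ratios in these same libraries, so their ratios are given as a description only. A total of 8 of the 9 had a row among 13011 gene names, IER2 was not analysed here, and all 8 passed the filter of a mean of 1 FPKM or more that left 10106 tested genes. FPKM divides the fragments of a transcript by its length and by the size of the library, so levels of different genes can be compared on it.

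The AAPH library came from embryos given AAPH (2,2-azobis(2-amidinopropane) dihydrochloride), which breaks down to free radicals, at 2.6 µmol in 100 µL injected into the air chamber. The saline library came from embryos labelled with saline as the chemical. Per the protocol text, which both samples share, eggs were kept at 38 °C and 70% humidity. Dosing began at Hamburger-Hamilton stage 35, was repeated every other day until day 10, and the hearts of survivors were collected on day 11 (stage 37). The labels give neither the number of hearts per library, nor the sex or strain of the embryos, nor the hours between the last injection and harvest. Each group is 1 library, so there is no spread between replicates, no test was possible, and each difference below lies between these 2 libraries.

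Heart muscle markers were high in both libraries, with the troponin gene TNNC1 at 5824 FPKM in the AAPH library and 6578 FPKM in the saline library. Summed FPKM was 1042407 in the AAPH library and 1248089 in the saline library. The log2 ratio used throughout is log2((AAPH FPKM + 1)/(saline FPKM + 1)), which makes changes of weakly expressed genes look smaller, and a ratio past 1.5-fold either way was counted as higher or lower. All tested genes together had a median log2 ratio of 0.0039 and quartiles of −0.19 and 0.18. Of 15 tested heart muscle markers 1 was lower and 0 higher. Their median log2 ratio was −0.18, 4 of them lay above 0, and their summed FPKM was 44550 in the AAPH library and 50317 in the saline library. Of 12 tested fibroblast and epicardial markers 1 was lower and 0 higher, with a median of −0.15 and 4 above 0. Markers of some other cells also differed between the libraries. Of 11 tested erythroid markers 5 were lower and 1 higher, with a summed FPKM of 2463 in the AAPH library and 3633 in the saline library. Of 10 tested neuronal and glial markers 5 were lower and 0 higher (150 and 194 FPKM, summed over the 14 with a row). TUBB3, which was within 1.5-fold, was the largest part of both sums (103 and 135 FPKM). Among 11 tested leukocyte and macrophage markers 2 were lower and 0 higher (79.0 and 100.0 FPKM, summed over the 18 with a row). The largest part of these 2 sums was CYBA (32.8 and 47.5 FPKM), also within 1.5-fold. The median log2 ratio of these 11 was only −0.008, however, and 5 of them lay above 0. Over all tested genes, 3.93% were lower and 2.73% higher. CD8A was listed at 0 in the AAPH library and DBH in the saline library. In bulk tissue, fewer cells of a type and less RNA per cell cannot be told apart, and the part of these markers in the values below was not tested.

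Of the 8 regulators, 3 were higher at 1.5-fold in the AAPH library (TRIB1, ATF3 and NFIL3) and 0 were lower, beside 2.73% of all tested genes higher and 3.93% lower. Since those 3 were picked for their ratios, nothing is read from that count. The 5 others were all within 1.5-fold. Their log2 ratios ran from −0.05 for BTG1 to 0.29 for EGR1. The set spanned a wide range of levels, with BTG1 the highest and FOS the lowest in both libraries.

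**Figure D1:**
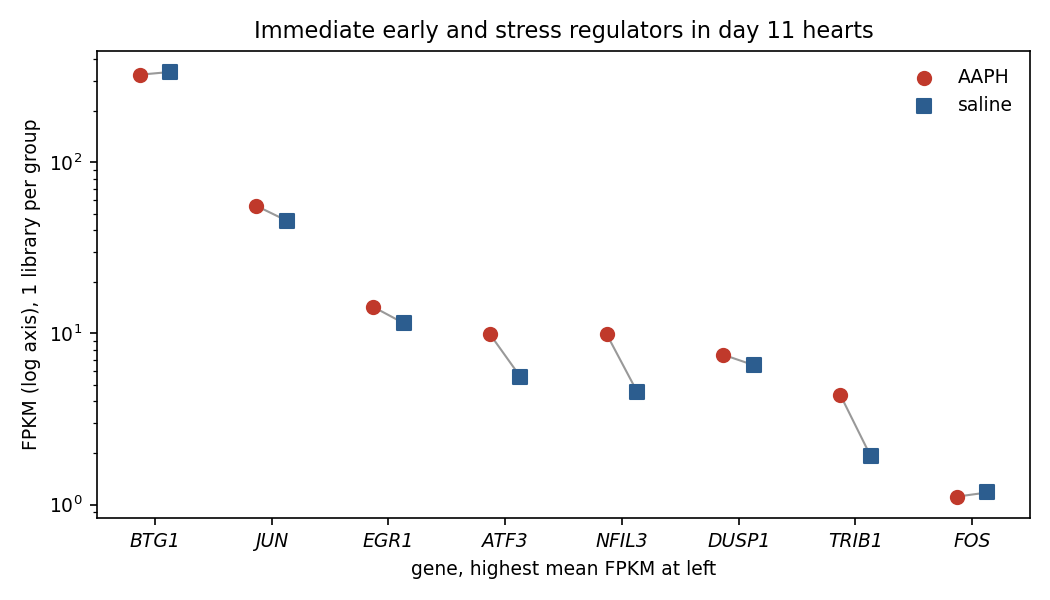
FPKM of the 8 regulators (log axis), with genes ordered by mean FPKM and the AAPH library (circles) to the left of the saline library (squares), 1 library each. ATF3 (9.90 and 5.59 FPKM), NFIL3 (9.89 and 4.57) and TRIB1 (4.38 and 1.92) show the steepest lines, and BTG1 and FOS are nearly level.

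The founding AP-1 subunits were at very different levels. FOS, whose protein binds DNA only together with a JUN partner, was at 1.11 FPKM in the AAPH library and 1.18 FPKM in the saline library, a log2 ratio of −0.04. In mean FPKM, 1.46% of tested genes lay lower than FOS. The values correspond to 9 fragments in the AAPH library and 10 in the saline library, so the FPKM ratio of 0.946 has a 95% counting interval of 0.340 to 2.59. At this depth a difference in FOS inside that interval was not detectable.

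JUN, the partner that can also pair with itself, was at 55.6 FPKM in the AAPH library and 45.6 FPKM in the saline library, a log2 ratio of 0.28. It stood 1321st of 10106 genes in mean FPKM. JUN exceeded FOS 49.99-fold in the AAPH library and 38.8-fold in the saline library, and with FOSL2, the 1 other FOS or JUN family gene of the lists that had a row, JUN made up 96.7% of the summed FPKM of these 3 genes in the AAPH library and 97.2% in the saline library. The smallest fragment numbers that fitted JUN were 318 in the AAPH library and 274 in the saline library. They give a counting interval of 1.03 to 1.44 around the FPKM ratio of 1.22. For JUN, 61 number pairs fitted, up to 3459 fragments in the AAPH library and 2980 in the saline library, and which pair holds is not known.

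EGR1, a zinc finger factor that binds GC-rich promoters, was at 14.3 FPKM in the AAPH library and 11.5 FPKM in the saline library. Its log2 ratio of 0.29 was the largest of the 5 genes within 1.5-fold. The smallest fragment numbers were 155 in the AAPH library and 131 in the saline library. They give a counting interval of 0.979 to 1.58 around the FPKM ratio of 1.24, which includes 1. For EGR1, 17 number pairs fitted, up to 1020 fragments in the AAPH library and 862 in the saline library. Larger numbers give a narrower interval, and which pair holds for EGR1 is not known. Its relative EGR4 was at 0.0571 FPKM in the AAPH library and listed at 0 in the saline library.

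DUSP1, the nuclear phosphatase that inactivates p38, JNK and ERK kinases, was at 7.49 FPKM in the AAPH library and 6.52 FPKM in the saline library (log2 ratio 0.18). The smallest fragment numbers were 233 in the AAPH library and 213 in the saline library, for an FPKM ratio of 1.15 and a counting interval of 0.951 to 1.39. Among 18 DUSP genes with a row DUSP1 was 15th in the AAPH library and 12th in the saline library, and it made up 1.92% and 1.62% of their summed FPKM. The DUSP gene with the highest level in both was DUSP26, at 88.4 FPKM in the AAPH library and 107.8 FPKM in the saline library.

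BTG1, which restrains proliferation and recruits the CCR4-NOT deadenylase, was at 325 FPKM in the AAPH library and 337 FPKM in the saline library (log2 ratio −0.05). It stood 248th of 10106 tested genes in mean FPKM. Its paralog BTG2, a p53 target in mammals, was at 20.7 FPKM in the AAPH library and 19.3 FPKM in the saline library, so BTG1 exceeded BTG2 15.7-fold in the AAPH library and 17.5-fold in the saline library. BTG1 and FOS lay slightly below 0 as deposited and slightly above 0 when each library was rescaled to the same FPKM sum (0.21 and 0.09), so no direction is given for either.

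TRIB1 is a pseudokinase that brings the COP1 ubiquitin ligase to its substrates, C/EBP-alpha among them, and its transcript is short-lived. It was at 4.38 FPKM in the AAPH library and 1.92 FPKM in the saline library, a log2 ratio of 0.88 and rank 58 from the highest of 10106 genes. It has 1 assembled transcript, and its values correspond to 26 fragments in the AAPH library and 12 in the saline library. The FPKM ratio of 2.28 thus has a counting interval of 1.11 to 4.95. The interval covers counting error only, and since TRIB1 was picked for this ratio it is no test of it. Genes of a mean of 3 to under 10 FPKM were 1.5-fold higher in 3.24% of cases, and those of 1 to under 3 FPKM in 6.27%. TRIB1, at a mean of 3.15 FPKM, lies near the border of these bands. With a pseudocount of 5 in place of 1 the log2 ratio was 0.44, within 1.5-fold.

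The Tribbles gene at the higher level was TRIB2, at 18.1 FPKM in the AAPH library and 16.2 FPKM in the saline library (log2 ratio 0.15). TRIB1 made up 19.5% of the 2 genes' summed FPKM in the AAPH library and 10.6% in the saline library. The tested genes next to TRIB1 in RefSeq order (assembly GRCg7b) did not share its ratio. NSMCE2 on one side was at 27.9 FPKM in the AAPH library and 41.8 FPKM in the saline library (log2 ratio −0.56), and MYC on the other at 8.54 and 7.81 FPKM (0.11).

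ATF3, a bZIP factor of the ATF and CREB group that acts mostly as a repressor when it pairs with itself, was at 9.90 FPKM in the AAPH library and 5.59 FPKM in the saline library. Its log2 ratio of 0.73 was rank 124 from the highest. The gene has 2 assembled transcripts and most of the difference lay in the second. The first was at 6.10 FPKM in the AAPH library and 5.37 FPKM in the saline library, and the second at 3.80 and 0.213 FPKM. The second transcript held 38.4% of ATF3 in the AAPH library and 3.81% in the saline library. With the first transcript alone, the log2 ratio was 0.15 and ATF3 was within 1.5-fold, and with a pseudocount of 5 it was 0.49. Both transcripts carry the same nearest reference transcript in the tables, which give neither exons nor lengths, so what distinguishes them was not analysed here.

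NFIL3, a bZIP repressor that competes with the circadian activators DBP, TEF and HLF for their sites and is needed for natural killer cells in mice, was at 9.89 FPKM in the AAPH library and 4.57 FPKM in the saline library. Its log2 ratio of 0.97 was the largest of the set and rank 41 from the highest. That order depends on the pseudocount, since the FPKM ratio was 2.16 for NFIL3 and 2.28 for TRIB1. NFIL3 has 3 assembled transcripts. The first was at 3.39 FPKM in the AAPH library and 1.13 FPKM in the saline library. The second was at 3.56 and 3.44 FPKM. The third was at 2.94 FPKM in the AAPH library and listed at 0 in the saline library. The second transcript, the highest of the 3, thus hardly differed (log2 ratio 0.04), and transcripts 1 and 3 carried the difference.

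**Figure D2:**
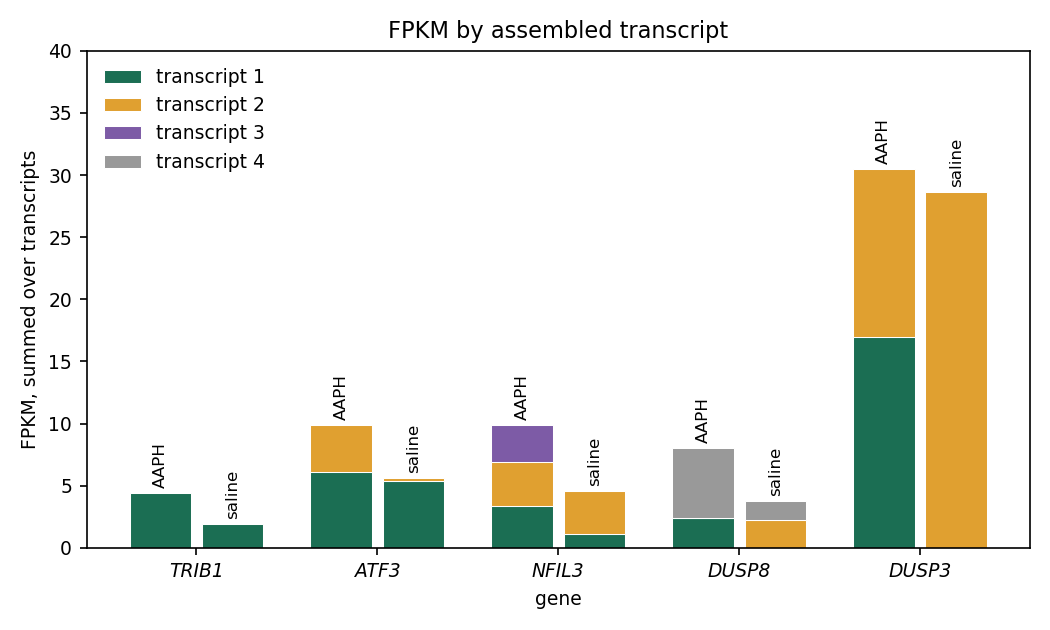
FPKM of TRIB1, ATF3, NFIL3 and the phosphatase genes DUSP8 and DUSP3, stacked by assembled transcript, with the AAPH library to the left of the saline library for each gene. TRIB1 has 1 transcript, whereas the excess of ATF3 lies in transcript 2 and that of NFIL3 in transcripts 1 and 3. DUSP3 has nearly equal sums (30.5 and 28.7 FPKM) made of different transcripts.

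How FPKM is divided among the transcripts of a gene is an estimate, and it varied between these libraries in many genes. Of 6385 genes with 2 or more transcripts and a summed FPKM within 1.5-fold, 38.5% had a transcript that was 2-fold or more higher or lower. Of 165 genes with 2 or more transcripts that were 1.5-fold higher in sum, 40.6% were not 1.5-fold higher in their highest transcript, as was the case for ATF3 and NFIL3. DUSP3 shows the size such shifts can have, with its first transcript at 16.9 FPKM in the AAPH library and 0.00232 FPKM in the saline library, and its second at 13.6 and 28.7 FPKM. A shift of reads toward a shorter transcript changes a summed FPKM without a change in fragments, and the tables hold no lengths, so its part in ATF3 and NFIL3 was not tested.

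NFIL3 lies on chromosome Z in RefSeq, and genes of Z as a group had higher ratios than the rest. The 377 tested Z genes had a median log2 ratio of 0.31 (quartiles 0.14 and 0.50) and 84.4% of them lay above 0, against a median of −0.00023 and 49.9% above 0 in 8028 genes of other chromosomes. At 1.5-fold, 15.6% of Z genes were higher, against 1.74% of genes elsewhere. NFIL3 lay 0.66 above the Z median on the log2 scale, and 6 of the 377 Z genes had a larger ratio. Since NFIL3 was picked for its ratio, nothing is read from that distance or rank. With its highest transcript only, NFIL3 was at 0.04, beside the Z median of 0.31 for summed genes. Its neighbours in RefSeq order were closer to that median, with the RNA-binding hydratase gene AUH at 39.95 FPKM in the AAPH library and 32.4 FPKM in the saline library (log2 ratio 0.29) and the receptor gene ROR2 at 5.27 and 4.34 FPKM (0.23). Males carry 2 copies of Z and females 1 in birds, and the labels give no sex, so the part of embryo sex in the NFIL3 value was not tested. None of the other 7 regulators lies on Z, and their chromosomes had median log2 ratios between 0.01 and 0.04.

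**Figure D3:**
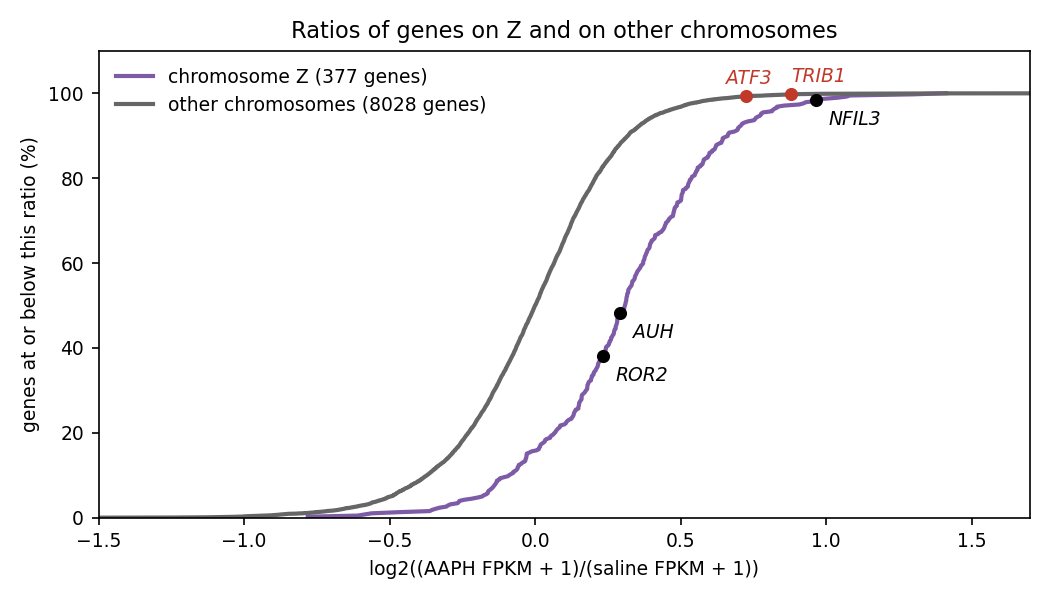
Cumulative share of tested genes (%) at or below each log2 ratio, for 377 genes of chromosome Z and 8028 genes of other chromosomes. The Z curve is shifted right, with NFIL3 near its top and its neighbours AUH and ROR2 near its middle, and ATF3 and TRIB1 (red) stand at the top of the other curve.

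With only 2 libraries, likeness between genes means no more than a similar level and ratio. NFIL3, TRIB1 and ATF3 were picked for their ratios, so nothing is read from how few genes reach them in the bands below. Among the 1261 genes with a symbol and a mean of 5.78 to 9.04 FPKM, a band around NFIL3, 1 had as high a ratio, and the nearest to NFIL3 were CACNB1 (log2 ratio 0.94), EBP (0.93) and DUSP8 (0.93). In the band of 2.52 to 3.94 FPKM around TRIB1 it was 2 of 831 genes, with MAATS1 (0.86), CDR2 (0.84) and C9orf72 (0.92) nearest. In the band of 6.19 to 9.68 FPKM around ATF3 it was 9 of 1284 genes, with ATG10 (0.72), ADAMTS8 (0.74) and RAD1 (0.71) nearest. Of these, C9orf72, ATG10 and RAD1 are Z genes.

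Of 54 further immediate early genes on a list, 36 had a row under the symbols used and 29 were tested. Of these, 1 was higher, 0 lower and 28 neither, with a median log2 ratio of 0.06 beside 0.0039 over all tested genes. Over all tested genes, 2.73% were higher and 3.93% lower, so the count in this list is near that background and nothing particular to the list is read from it. The 1 higher gene was CTGF, a matricellular growth factor, at 67.6 FPKM in the AAPH library and 38.1 FPKM in the saline library (log2 ratio 0.81). PIM3, a survival kinase, was at 13.1 FPKM in the AAPH library and 9.11 FPKM in the saline library (0.48). TNFAIP3, an inhibitor of NF-kappaB signalling, was at 1.11 and 1.84 FPKM (−0.43).

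Several classical immediate early genes were close to the limit of detection in both libraries, and those below a mean of 1 FPKM were not among the tested genes. FOSL2 was at 0.762 FPKM in the AAPH library and 0.145 FPKM in the saline library, which correspond to 5 fragments and 1 fragment, and the counting interval of its ratio of 5.26 runs from 0.588 to 249. Its log2 ratio of 0.62 was past 1.5-fold. The nuclear receptor gene NR4A2 had 1 fragment in each library, and NR4A3 was at 1.01 FPKM in the AAPH library and 0.234 FPKM in the saline library, a log2 ratio of 0.70 that was also past 1.5-fold. ARC was at 0.107 FPKM in the AAPH library and listed at 0 in the saline library. MYC, at 8.54 and 7.81 FPKM, and IER5, at 32.7 and 42.8 FPKM (log2 ratio −0.38), were well above that level.

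**Figure D4:**
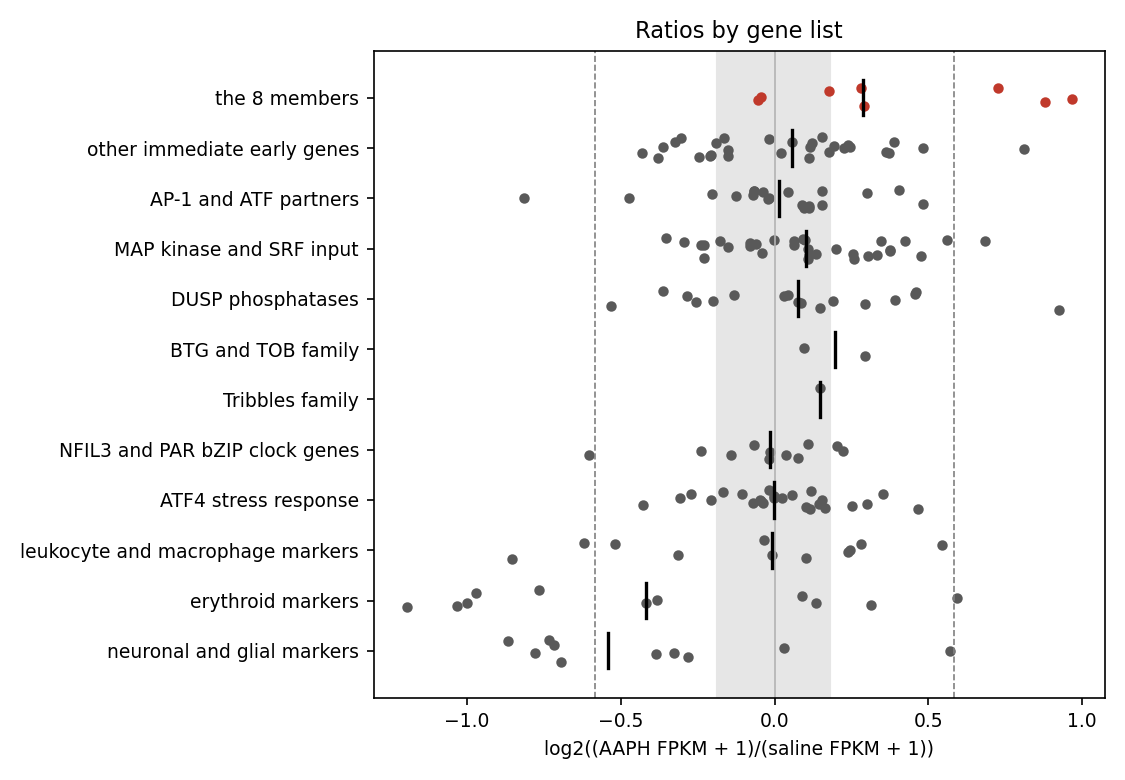
Log2 ratios of the tested genes of each list, with the 8 regulators in red, black ticks for list medians, grey shading for the quartiles of all tested genes and dashed lines at 1.5-fold. Most points of the pathway lists lie between the dashed lines. Erythroid, leukocyte and macrophage, and neuronal and glial markers reach past the lower line, as do BATF3 and PER3 of the pathway lists. An erythroid marker also lies past the upper line.

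Proteins that share the bZIP fold with FOS, JUN, ATF3 and NFIL3, or act with them, had a median log2 ratio of 0.01 in 20 tested genes. Of these, 0 were higher and 1 lower, beside 2.73% and 3.93% of all tested genes, and nothing particular to the list is read from that. The lower gene was BATF3, which partners JUN in immune cells, at 1.77 FPKM in the AAPH library and 3.88 FPKM in the saline library (log2 ratio −0.82). It rests on 10 fragments in the AAPH library and 23 in the saline library, with a counting interval of 0.194 to 0.998 around its FPKM ratio of 0.457. BATF3 was named for its ratio, so that interval is no test of it. CREM, of the cAMP response, lay at 0.48, and MAF at −0.47. JDP2, a repressor of AP-1 that neighbours FOS, was at 24.6 FPKM in the AAPH library and 24.9 FPKM in the saline library.

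The kinase and SRF branch upstream of FOS and EGR1 had a median log2 ratio of 0.10 in 32 tested genes, with 1 higher and 0 lower. Beside 2.73% higher and 3.93% lower over all tested genes, nothing particular to the branch is read from that count. MAPK6 (0.56) and the Z gene MAP3K1 (0.48) were within 1.5-fold. SRF itself was at 74.4 FPKM in the AAPH library and 78.7 FPKM in the saline library (−0.08).

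Of 17 further DUSP phosphatases, 1 was higher, 0 were lower and 16 were neither, with a median log2 ratio of 0.08. Over all tested genes 2.73% were higher and 3.93% lower, and nothing particular to the list is read from its count. DUSP8, which acts on JNK and p38, was at 8.01 FPKM in the AAPH library and 3.74 FPKM in the saline library (0.93). It has 4 assembled transcripts, and the one at the highest level was at 5.63 FPKM in the AAPH library and 1.51 FPKM in the saline library, while another was at 0.00231 and 2.22 FPKM. DUSP5, an ERK phosphatase induced by ERK itself, was at 1.58 FPKM in the AAPH library and 2.74 FPKM in the saline library (−0.53), from 38 fragments in the AAPH library and 69 in the saline library (counting interval of the FPKM ratio, 0.379 to 0.872). DUSP5 was named for its distance from 0 in this list, so its interval is no test of its ratio. DUSP27 lay at 0.46. In the BTG and TOB family, TOB2 was at 9.07 FPKM in the AAPH library and 7.22 FPKM in the saline library (0.29), and BTG2 lay at 0.10.

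Genes of the ATF4 branch, which induces ATF3 and TRIB3 under amino acid and endoplasmic reticulum stress, had 0 of 25 tested genes higher and 0 lower, beside 2.73% of all tested genes higher and 3.93% lower. With those shares few calls could fall in a list of this size, and nothing particular to the list is read from the count. Its median log2 ratio was −0.00008. ATF4 was at 450 FPKM in the AAPH library and 472 FPKM in the saline library (−0.07), which is 45.5 times the level of ATF3 in the AAPH library and 84.5 times that in the saline library. STC2 (0.47), SESN2 (−0.43) and the Z gene PSAT1 (0.35) were farthest from 0. The PAR bZIP factors share sites with NFIL3, and their list also held other clock genes. The genes of that list had a median log2 ratio of −0.01 in 11 tested genes, 0 higher and 1 lower. Beside 2.73% higher and 3.93% lower over all tested genes, nothing particular to these genes is read from that count. The lower gene was PER3, a period gene, at 1.29 FPKM in the AAPH library and 2.48 FPKM in the saline library (−0.60). CRY2 lay at −0.24 and CSNK1E at 0.22, and HLF, whose sites NFIL3 shares, was at 5.96 and 5.78 FPKM.

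Over all these pathway and family lists, 132 genes other than the 8 regulators were tested, of which 3 were higher, 2 lower and 127 neither. Among all tested genes 2.73% were higher and 3.93% lower, and nothing particular to the lists is read from these counts. Of the 132, 4 are Z genes (KLF4, PLK2, MAP3K1 and PSAT1), all with log2 ratios above 0 and a median of 0.36, and the other 128 had a median of 0.05. The count of higher genes depended on the scaling. When each library was rescaled to the same FPKM sum, the median of all tested genes moved to 0.23, and 17 of the list genes were then 1.5-fold higher and 1 lower. Under that rescaling 837 of all tested genes were 1.5-fold higher and 152 lower, in place of 276 and 397. The shares of 2.73% and 3.93% therefore do not apply to the rescaled counts, and nothing particular to the lists is read from them.

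**Figure D5:**
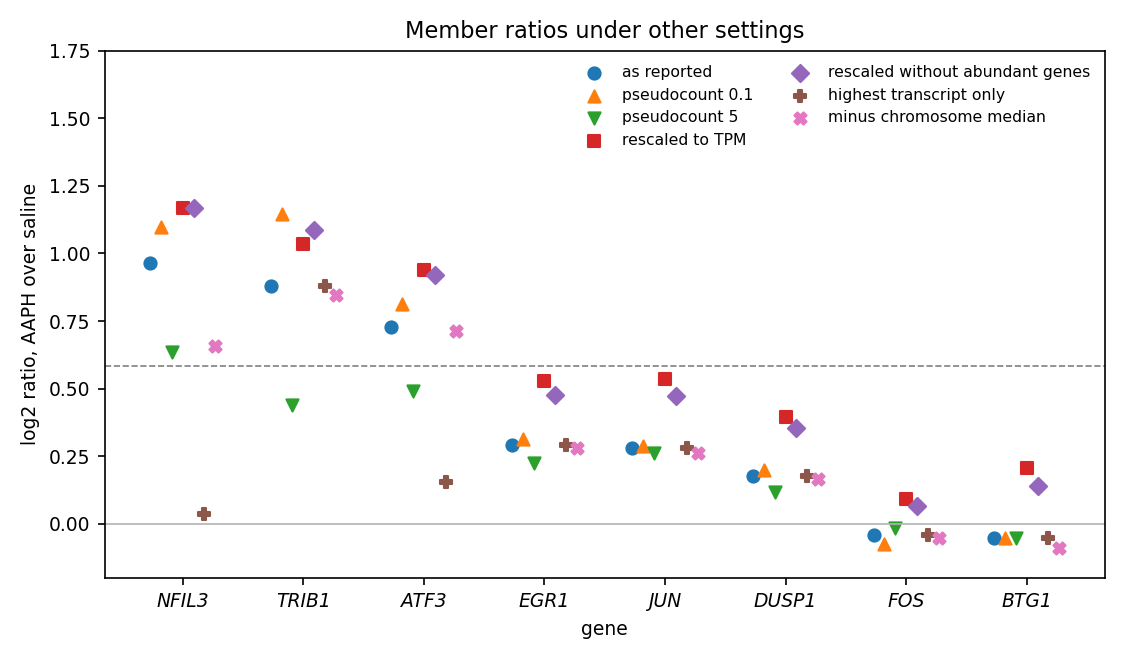
Log2 ratio of the 8 regulators as reported and under 6 other settings, with a dashed line at 1.5-fold higher. NFIL3 and ATF3 drop to 0.04 and 0.15 when the highest transcript alone is used, TRIB1 drops to 0.44 with a pseudocount of 5, and both rescalings lift all 8 genes.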

How the data were processed

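The authors deposited FPKM values for each assembled transcript in each library, per the file headers. The submitters' processing notes name TopHat2 2.1.1 and Cufflinks 2.2.1, besides Cuffdiff and bcl2fastq. Genome build and gene annotation: not given in the sources used here. Transcripts of a gene name were summed and 1968 of 27335 transcripts without a name were left out. The lists were matched on the symbol, regardless of case; chromosomes came from RefSeq (GRCg7b) by symbol for 83.2% of tested genes. None of 12 W chromosome genes on a list had a row under the symbols used.

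Members and gene lists were chosen with earlier results of these data known. All members were named, with the 3 genes farthest from 0 and all genes past 1.5-fold of each pathway or family list, up to 5 of the highest genes per marker list, and the neighbours and nearest genes of members. NR4A2, NR4A3, ARC, FOSL2, EGR4, MYC, IER5, JDP2, SRF, ATF4, HLF, DUSP3, DUSP26, CD8A and DBH were named after their values were seen. Of the genes this rule named, 1 is not reported here. Near-identical or overlapping genes can share reads.

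Absolute depth is not given by FPKM. In genes with 1 transcript, FPKM was taken as a whole number of fragments times the value of 1 fragment. That value differed between the libraries by a factor of 1.05 plus a small term that grows with the FPKM per fragment. This did not hold for every gene, and for EBP no pair of numbers fitted. At high levels many pairs fitted, 1015 for TNNC1 with a smallest of 6 and 11 fragments, so a smallest pair there says little about depth. In 97.6% of 703 genes of 0.05 to 0.3 FPKM, whole numbers up to 20 gave both values within a relative tolerance of 3e-06, the rounding of the values and 3% of the small term. The factor and the small term were set on 609 genes chosen from a set that held these 703, so that share is not an independent check. Intervals are exact binomial (Clopper-Pearson, 95%) and cover counting error only; where several number pairs fitted, the smallest, which gives the widest interval, is quoted. On simulated data, the smallest pair was the true one in 93.6% of 2141 1-transcript genes. All of these had fewer saline fragments than JUN, EGR1 or DUSP1. In a 2nd simulation, 94.5% of 200 genes raised 2-fold were called higher, and 0.111% of unchanged genes. It held counting noise only, at more fragments per FPKM than TRIB1 or FOS had. It had no division among transcripts, so it does not cover calls such as those of ATF3 and NFIL3. Calculations used scipy 1.17.1, pandas 2.3.3 and numpy 2.4.6 under Python 3.11.15, and figures matplotlib 3.10.9.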

Additional observations from a re-analysis of the deposited data

How the results depend on the processing

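No paired analysis was possible because each group has 1 library, and no replicate could be left out. JUN, EGR1 and DUSP1 stayed within 1.5-fold and above 0 under all 12 other settings (0.26 to 0.53, 0.23 to 0.53 and 0.12 to 0.40). Each has 1 transcript at 1 locus and lies off Z. Settings on filters, transcripts, loci or Z therefore could not change these ratios, and only the pseudocounts, rescalings and centrings could. Of the 8 regulators, 3 were 1.5-fold higher as reported. With a pseudocount of 5 it was 1 (NFIL3), and with the highest transcript only it was 1 (TRIB1). Among genes with 1 transcript it was also 1 (TRIB1), but that setting leaves out ATF3 (2 transcripts) and NFIL3 (3 transcripts) by definition. Rescaling moved the median of all genes to 0.23 (TPM) and 0.18 (without mitochondrial-genome, ribosomal protein and haemoglobin genes), under which FOS and BTG1 lay above 0. NFIL3 ranged from 0.04 to 1.17, TRIB1 from 0.44 to 1.15 and ATF3 from 0.15 to 0.94 over the settings.

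All tested genes 1.5-fold higher numbered 276 as reported, 505 with a pseudocount of 0.1, 56 with 5, 134 at a mean of 5 FPKM or more, 837 after rescaling to TPM, 777 after the other rescaling, 754 with the highest transcript only and 111 with 1-transcript genes. Genes 1.5-fold lower numbered 397, and 161, 246, 152, 236, 850 and 204 under these settings other than the pseudocount of 0.1. Genes 2-fold higher numbered 36, and 106, 8, 14, 79, 101 and 262 under the settings before 1-transcript genes. Genes 2-fold lower numbered 79, and 162, 25, 52 and 34 under the settings up to TPM, 279 with the highest transcript and 46 with 1-transcript genes. The settings at a mean of 5 FPKM or more and with 1-transcript genes count within fewer genes, here and for the list genes below. Of 3363 tested 1-transcript genes, 3.3% were 1.5-fold higher and 6.07% lower, against 2.73% and 3.93% of all 10106, so their smaller counts are not smaller shares.

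List genes 1.5-fold higher numbered 3, and 1 with a pseudocount of 5, 5 with no filter, 17 after TPM, 11 after the other rescaling, 8 with the highest transcript and 1 with 1-transcript genes. List genes lower numbered 2, and 5 with a pseudocount of 0.1, 0 with 5, 0 at a mean of 5 or more, 1 after each rescaling, 5 with the highest transcript and 1 with 1-transcript genes. The counts over all tested genes moved under these settings too, as given above. With no filter 348 genes were 1.5-fold higher, and with a pseudocount of 0.1 551 were lower. Nothing particular to the list genes or the 8 regulators is read from their counts. Causes of these shifts were not tested. The settings without Z genes and with 1-transcript genes were chosen after seeing the data. Depth limits the genes with few fragments, which in the AAPH and the saline library numbered 1 and 1 for NR4A2, 5 and 1 for FOSL2, 9 and 10 for FOS, 26 and 12 for TRIB1, and 10 and 23 for BATF3.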
